A study of Homo sapiens with 24 samples.

Results

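The regions described here are chromatin immunoprecipitation sequencing (ChIP-seq) peaks that lie in 15 windows around human centromeres, where satellite repeats and segmental duplications are common. A peak belongs to the set when the middle of its interval falls in a fixed window of the GRCh37 genome, and the windows, on chromosomes 1, 2, 4, 5, 7, 8, 9, 10, 16, 17, 18, 19, 20, 21 and 22, span 144 Mb, or 4.75% of the span covered by peaks. Of 13347 matched peaks in the 8 deposited lists, 307 (2.3%) met the rule. Members were thus chosen by the positions of the peaks, in windows selected with the earlier results of these lists known, so the counts per window and list describe the data and were not tested.

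The cells were HCC827, an established lung adenocarcinoma line in which EGFR is mutated and amplified, and HCC827-OR, its derivative that is resistant to the mutant EGFR inhibitor osimertinib. Parental cells are labelled untreated, and resistant cells were kept in 1 µM osimertinib. In each state, wild-type cells and cells overexpressing METTL7A, a membrane-associated methyltransferase-like protein, fused to MYC-tag and FLAG were precipitated with IgG as isotype control or with a MYC-tag antibody. The tag derives from human MYC, and whether the antibody bound MYC itself was not tested. All 8 groups are 1 cell line, and the labels give neither the promoter of the transgene nor whether the METTL7A cells are 1 clone. Of the 24 samples, 16 in 8 groups of 2 entered the lists, and the other 8 are input samples with no list used here. Each list combines both replicates of its group, which are labelled as biological. There are thus 1 list per group and no replicate error between lists, and the files do not show how deeply each library was sequenced.

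Centromeres are built on tandem alpha satellite repeats and are flanked by other satellites and by duplicated blocks of sequence that recur on several chromosomes. Reads from such copies are hard to place, and a reference that holds fewer copies than the cell gathers the reads of all of them on the copies it has. For this reason a part of the pericentromeric sequence is known for high signal in many sequencing assays. The short arms of the acrocentric chromosomes, among them 21 and 22, also carry the ribosomal RNA genes. In the RefSeq table of GRCh38.p14, the microRNA gene MIR3648 has 2 copies on chromosome 21, and MIR3648-1 lies inside the 45S ribosomal RNA gene RNA45SN2. The chromosome 21 window, whose short-arm end carries ribosomal DNA-like sequence, held the highest peak of the set. The mature product of MIR3648 is shown as background, from the copy MIR3648-2, which is not listed inside RNA45SN2. Whether its sequence has a part in that peak was not tested. The seed, bases 2 to 8, is in capitals:
hsa-miR-3648: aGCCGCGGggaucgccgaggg
It has 17 G or C bases of 21 (81.0%), against a median of 52.2% over 2370 mature miRNAs in the same table. Sequence was not read at the peaks themselves, since no GRCh37 genome was used here. Neither repeat content nor the overlap of a peak with a gene was computed. Genes are named below as background knowledge of what a stretch of a chromosome carries.

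The middle of several windows held no peaks at all. The windows as a whole, stretches without peaks included, held 2.13 matched peaks per Mb over the 8 lists, against 4.52 per Mb elsewhere. The density was above 4.52 on chromosomes 7 (12.3), 17 (8.6), 20 (5.33) and 21 (5), and below it in the other windows. The longest stretch without a peak in any list took up most of several windows. On chromosome 9 it ran from 38.4 to 68.4 Mb, on chromosome 1 from the window's start to 144.9 Mb, and on chromosome 16 from 35 to 46.7 Mb. The longest empty stretches of the 15 windows added up to 111 Mb. How much of them is sequence to which reads can be placed was not examined. The lower density of the windows as a whole is thus not a measured depletion. The window on chromosome 19 held no peak. Without a repeat annotation, how much of the members is satellite sequence was not tested, so they are described by position alone. At the edges the nearest member inside and the nearest peak outside had heights, here the lower −log10 p of both replicates, of the same order. They lay 3.63 to 26502 kb from the edge, and some edges lacked the inside or the outside one. The member nearest to the chromosome 7 edge at 57 Mb (chr7:57076527-57077224, height 3.37) and the nearest peak outside it (chr7:56960223-56960668, 5.53) both came from the parental METTL7A MYC-tag list.

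Among the 8 lists, the METTL7A MYC-tag lists held the largest numbers and shares of these peaks. In parental METTL7A cells 78 of 2271 MYC-tag peaks (3.43%, 95% interval 2.72 to 4.27) lay in the windows, and in resistant METTL7A cells 101 of 3165 (3.19%, 2.61 to 3.86). The wild-type MYC-tag lists held 12 of 1005 (1.19%, 0.618 to 2.08) in the parental and 49 of 2767 (1.77%, 1.31 to 2.33) in the resistant state. The wild-type IgG lists held 27 of 1444 (1.87%, 1.24 to 2.71) and 40 of 2529 (1.58%, 1.13 to 2.15). None of the 70 parental and 96 resistant METTL7A IgG peaks lay there, which allows shares of up to 4.29% and 3.12% by a limit of 3 counts, and up to 5.13% and 3.77% by the upper end of the exact 95% interval. The exact intervals include the METTL7A MYC-tag share of the same state, so an excess over IgG in these cells was not detectable with lists this short. Intervals are exact (Clopper-Pearson), and with the limits they cover counting error only.

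By genotype, the share was 2.88 times that of wild-type MYC-tag in parental cells and 1.80 times in resistant cells. Without the chromosome 7 window the ratios were 2.46 and 1.40, and the METTL7A shares 2.2% and 2.27%. By antibody, the wild-type ratio of MYC-tag to IgG was 0.639 in parental and 1.12 in resistant cells, so in cells without the tag its direction differed between the states. By cell state, the resistant share was 0.929 times the parental one for METTL7A MYC-tag, 1.48 times for wild-type MYC-tag and 0.846 times for wild-type IgG. The list lengths differ as well, and the resistant wild-type MYC-tag list is 2.75 times as long as the parental one.

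**Figure D1:**
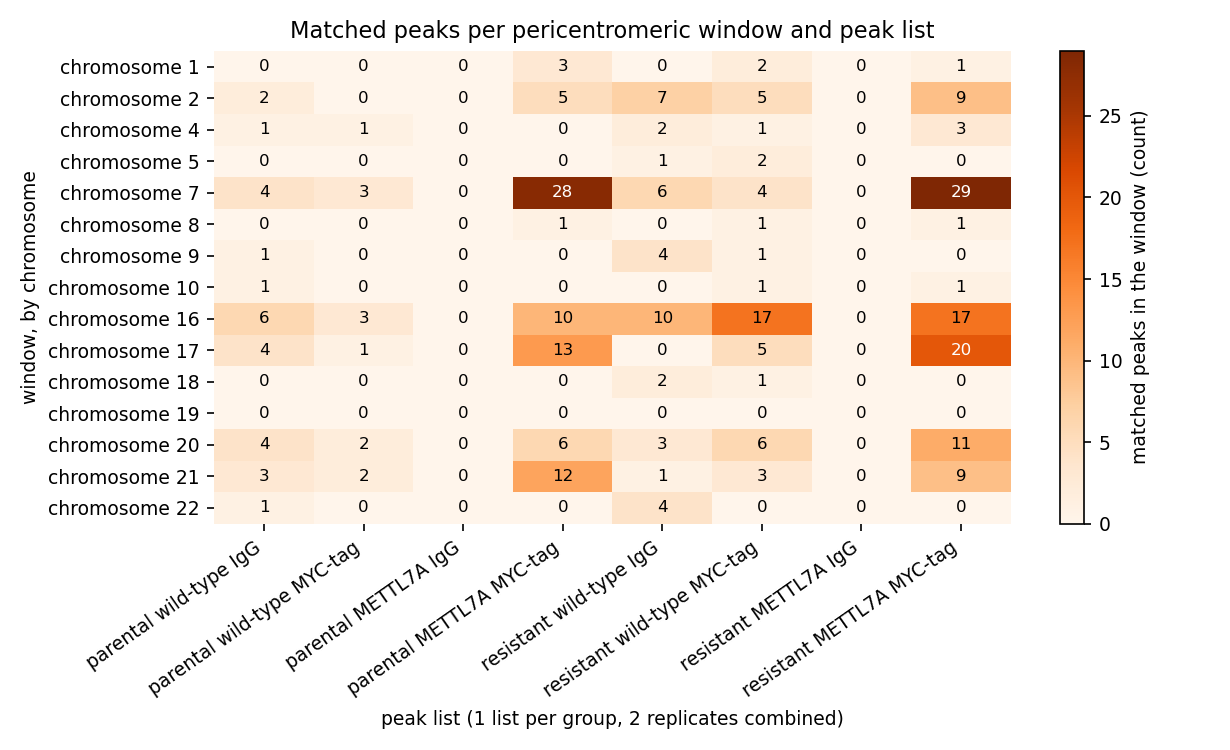
Number of matched peaks in each of the 15 windows (vertical axis, by chromosome) in each of the 8 peak lists (horizontal axis), with the count printed in each cell and given by the shade. The chromosome 7 window holds 28 and 29 peaks in the METTL7A MYC-tag lists and 3 to 6 in the wild-type lists, and both METTL7A IgG lists are at 0 throughout.

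Chromosomes 7, 16, 17 and 21 held 210 of the 307 peaks (68.4%). On chromosome 7 the METTL7A MYC-tag lists had 28 (parental) and 29 (resistant) peaks, and the wild-type lists 4 and 3 (parental IgG and MYC-tag) and 6 and 4 (resistant). On chromosome 17 the METTL7A lists had 13 and 20, against 4 and 1 in parental and 0 and 5 in resistant wild-type cells. The chromosome 21 window held 12 and 9 METTL7A MYC-tag peaks, against 3 and 2 and then 1 and 3 in the wild-type lists. On chromosome 20 the METTL7A lists held 6 and 11 peaks, against 4 and 2 and then 3 and 6 in the wild-type lists, and on chromosome 2 they held 5 and 9, against 2 and 0 and then 7 and 5. On chromosome 16 the parental METTL7A list held 10 peaks against 6 and 3, but the resistant one held 17, as many as resistant wild-type MYC-tag, with 10 in resistant wild-type IgG. In both states, then, METTL7A MYC-tag counts were above both wild-type counts in the windows of chromosomes 2, 7, 17, 20 and 21. These counts are not divided by list length, and the METTL7A MYC-tag lists are the longer ones. They held 2271 peaks against 1444 and 1005 in parental cells, and 3165 against 2529 and 2767 in resistant cells. Close counts, as on chromosome 20 in parental and chromosome 2 in resistant cells, do not show a larger share. Chromosome 22 held 5 peaks, all in wild-type IgG lists, with 4 of them in resistant cells. Merging members that overlap by at least 1 bp gave 231 positions. Of these, 178 were found in 1 list, 39 in 2, 12 in 3 and 2 in 4, and none in more.

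Peaks also bunched within the windows. With members no more than 50 kb apart joined, the 307 peaks fell into 100 groups, 52 of them of a single peak. The 5 largest groups held 107 peaks (34.9%), and these lay on chromosomes 17, 7 and 21.

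The largest group lay on the short arm of chromosome 17 (chr17:21146068-21359199, 38 peaks at 24 positions). This stretch carries MAP2K3, a kinase of the p38 stress pathway, and KCNJ12, an inward rectifier potassium channel gene. KCNJ12 has a close copy, KCNJ18, that the GRCh38.p14 table lists separately, and reads from the 2 genes are hard to tell apart. METTL7A MYC-tag gave 12 of the peaks in parental and 17 in resistant cells. Wild-type lists gave 4 (parental IgG), 1 (parental MYC-tag), 0 (resistant IgG) and 4 (resistant MYC-tag). At chr17:21307196-21309779 resistant METTL7A cells had 2 peaks, the higher with −log10 p values of 12.4 and 10.6 in the 2 replicates. Parental METTL7A cells had 5.93 and 14.4 there, so the states overlap. No other list had a peak at it, which the rule that named this position required. Next to it, chr17:21312560-21317150 held 2 resistant METTL7A peaks, the higher with 7.78 and 15.7, and a parental METTL7A peak of 5.88 and 8.46. Resistant wild-type MYC-tag also had a peak there, of 9.40 and 4.03, so the replicate values of the 3 lists overlap. The largest width among the 307 peaks, 4226 bp, belonged to the parental METTL7A peak at that position. The highest wild-type peaks of this group by the lower replicate were chr17:21219962-21220605 in resistant MYC-tag (7.92 and 8.95) and chr17:21201451-21202174 in parental IgG (6.41 and 7.48), and no other list had a peak at either.

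On chromosome 21 (chr21:10596254-10625684), 17 peaks at 7 positions fell in 29.4 kb. It held 8 parental and 6 resistant METTL7A MYC-tag peaks, 2 parental wild-type MYC-tag peaks and 1 parental wild-type IgG peak, and none from resistant wild-type cells. Of the 17 peaks, 7 were reproducible, meaning a global irreproducible discovery rate (IDR, the expected share of irreproducible matches) of 0.05 or less. At chr21:10622502-10623870 parental METTL7A cells gave 19.6 and 17.7, the highest METTL7A peak of the set, and resistant METTL7A cells 8.67 and 20.3. Parental wild-type MYC-tag had 6.20 and 4.39 there, at the far end of the position. A second parental METTL7A peak at that end (5.45 and 17.6) had 1 replicate below the higher wild-type value, so these peaks overlap in height. At chr21:10596254-10598468 the METTL7A values were 7.82 and 8 (parental) and 8.88 and 13.4 (resistant), and parental wild-type MYC-tag had 6.22 and 3.28, below all 4 of them. The highest resistant METTL7A peak, of 20.2 and 11.8, lay at chr21:10610271-10613295. The parental METTL7A list had 2 peaks within it, the higher one with 8.74 and 26.7, so the states overlap. No wild-type list had a peak there, which a rule that named this position required. At chr21:10607137-10609635 the resistant METTL7A list had 16.3 and 9.23 and the parental one 4.91 and 15.5, which also overlap. Heights are on the scale of each list, so a lower value in another list is a description of its peak and not a measured loss of binding.

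**Figure D2:**
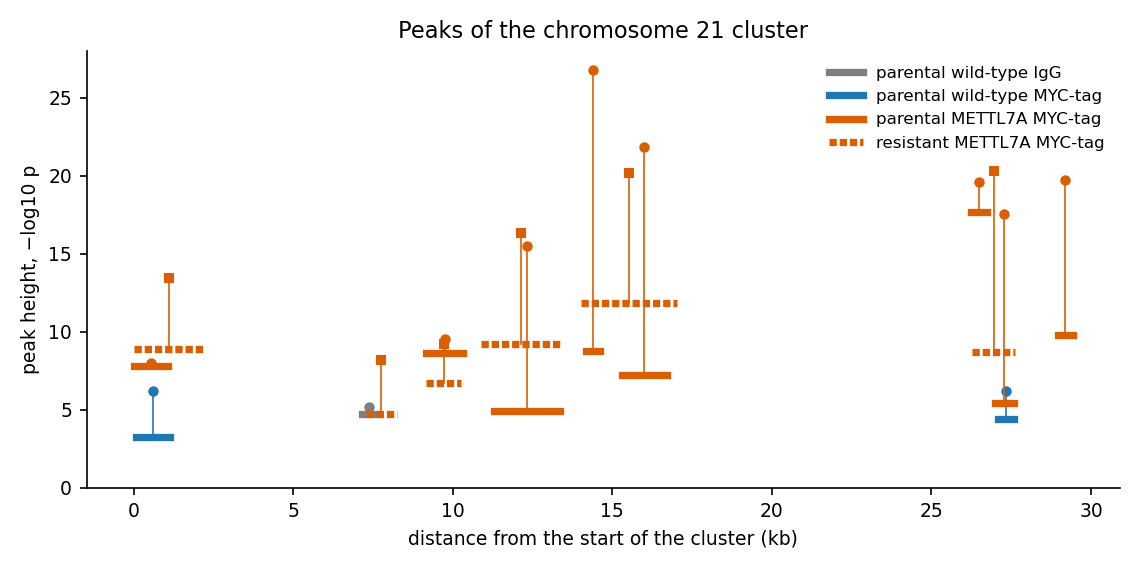
Peaks of the chromosome 21 group by distance from its first base (horizontal axis, kb) and height (vertical axis, −log10 p). Each bar spans a peak at the height of its lower replicate and the marker joined to it gives the higher replicate, in parental wild-type IgG (grey), parental wild-type MYC-tag (blue) and METTL7A MYC-tag (orange, solid with circles for parental and dashed with squares for resistant cells). The 3 wild-type peaks lie at 3.28 to 6.22 in both replicates, and METTL7A peaks reach 26.7.

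Further along the chromosome 21 window, chr21:9545870-9546968 was reproducible in parental METTL7A cells (10.2 and 14.9). Resistant METTL7A cells had 8.2 and 7.07 there and parental wild-type IgG 3.70 and 6.29, so both METTL7A lists were above the IgG values. The highest peak of the whole set was of another kind. At chr21:9825490-9827150, 1661 bp wide, resistant wild-type IgG had −log10 p values of 607 and 294 in the 2 replicates, the highest peak of that list of 2529. No other list had a peak at this position, including the MYC-tag list of the same cells and both lists of parental wild-type cells. Its part of chromosome 21 carries ribosomal DNA-like sequence and copies of MIR3648, shown above.

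On chromosome 7 the peaks lay on the centromere side of the amplified EGFR region, and the lists did not stand in the same order as there. The window's first Mb, 57 to 58 Mb, held 68 of its 74 peaks. This stretch lies between the EGFR region and the centromere and carries genes for zinc finger proteins such as ZNF716. In parental METTL7A cells it held 1.14% of all MYC-tag peaks, and in resistant ones 0.885%. Wild-type lists had 0.299% (parental MYC-tag), 0.208% (parental IgG), 0.145% (resistant MYC-tag) and 0.158% (resistant IgG). At 55 to 56 Mb, which holds EGFR, the order was another one. Parental wild-type MYC-tag had 8.66%, above 5.28% in parental METTL7A MYC-tag, while the resistant shares of 3.47% and 3.35% were close. Wild-type IgG had 3.12% (parental) and 3.04% (resistant). METTL7A IgG had 4.29% in parental cells (3 of 70 peaks) and 15.6% in resistant cells (15 of 96), the largest share of any list. Between the 2 regions, at 56 to 57 Mb, the METTL7A shares were 0.616% and 0.316% and those of the wild-type lists 0.119% to 0.398%. From 56 to 58 Mb both METTL7A lists held more peaks nearer the centromere, 26 against 14 in parental and 28 against 10 in resistant cells. The wild-type lists held 3 to 6 peaks per Mb in the first of these bins and 3 to 4 in the second. The copy number of the 57 to 58 Mb stretch in these cells was not measured here, and its part in the counts was not tested.

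**Figure D3:**
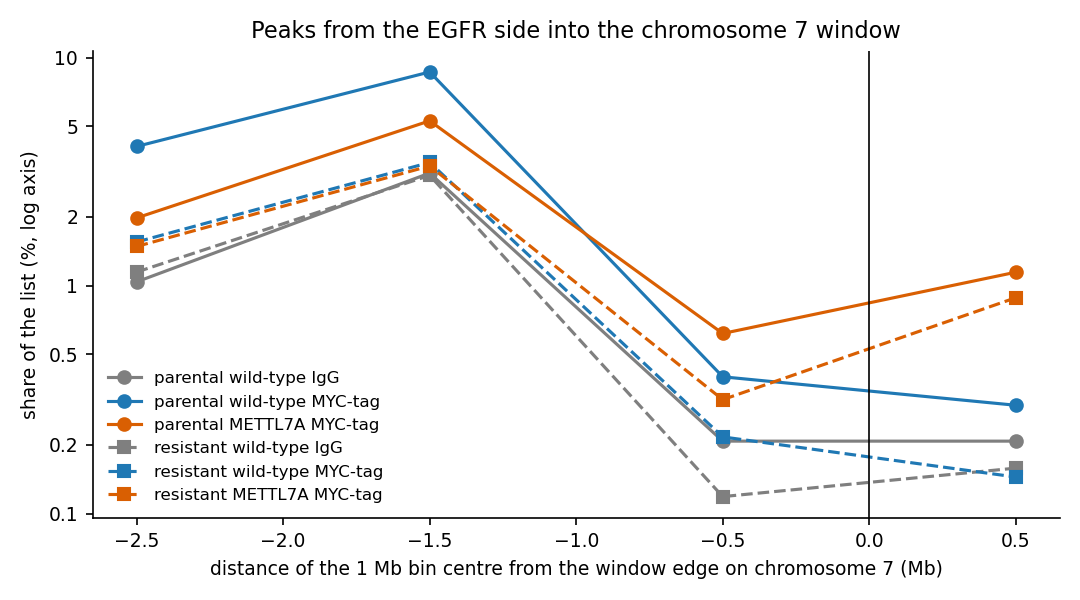
Share of each list's matched peaks (vertical axis, %, log scale) in 4 bins of 1 Mb on chromosome 7, placed by distance of the bin centre from the edge of the window (horizontal axis, Mb, window to the right of the line). Circles and solid lines are parental cells, squares and dashed lines resistant cells, grey IgG, blue wild-type MYC-tag and orange METTL7A MYC-tag. In the last bin the METTL7A lists are at 1.14% and 0.885% and the wild-type lists at 0.145% to 0.299%. The METTL7A IgG lists, with 0 peaks beyond the second bin, are not drawn.

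Several of these positions recurred. The peak at chr7:57497202-57498405 was reproducible in both METTL7A MYC-tag lists, with 12.1 and 10.7 in parental and 10.8 and 9.66 in resistant cells. Resistant wild-type IgG had 5.90 and 7.63 there, below all 4 METTL7A values. At chr7:57640580-57641402 parental METTL7A cells had 10.1 and 9.72 and resistant ones 4.36 and 3.85, so the states did not overlap, while at chr7:57879021-57879803 resistant METTL7A cells had 11.6 and 9.66 and parental ones 7.23 and 7.54, the other way round. These 2 positions had no peak in any wild-type list, which the rule that named them required. At chr7:57471552-57473062 parental METTL7A cells had 8.62 and 9.42, resistant ones 5.21 and 6.67, and parental wild-type MYC-tag 5.52 and 5.18, so the parental METTL7A values stood above the rest. Parental METTL7A and resistant wild-type MYC-tag peaks both lay at chr7:57710588-57714302, with 8.03 and 7.37 in the higher and 5.34 and 5.67 in the lower of 2 parental peaks against 8.84 and 5.31. Resistant METTL7A cells had 4.97 and 7.06, below the higher parental peak and across the lower one. At chr7:57880745-57882407 parental METTL7A cells had 7.17 and 15.2 and resistant wild-type MYC-tag 4.59 and 5.31, which do not overlap, while the resistant METTL7A values of 13.1 and 3.96 lay across both. At chr7:57076527-57077490 the replicates of each list lay far apart, at 3.37 and 12.4 in parental and 9.73 and 5.98 in resistant METTL7A cells and 8.68 and 3.68 in parental wild-type IgG.

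One position on chromosome 7 had the opposite pattern. All 4 wild-type lists had a peak at chr7:57485106-57486364, the IgG lists with 5.10 and 7.55 (parental) and 6.42 and 10.7 (resistant) and the MYC-tag lists with 3.86 and 4.26 and with 7.82 and 6.49. No METTL7A list had one there, which a rule that named this position required. The group around it (chr7:57376349-57498405) held 8 peaks in each METTL7A MYC-tag list. The global IDR of the 4 wild-type peaks at this position was 0.241 or higher, so none counted as reproducible. Right beside it, chr7:57484264-57484849 was reproducible in resistant wild-type IgG alone, with 19.6 and 18. Beyond the longest empty stretch of the window, chr7:61820526-61822321 was found in 4 lists, parental wild-type IgG (7.44 and 5.88), resistant wild-type IgG (4.53 and 8.83), parental METTL7A MYC-tag (7.17 and 3.8) and resistant METTL7A MYC-tag (3.32 and 7.85). IgG and MYC-tag values overlapped there.

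The other windows held scattered peaks. On chromosome 16, chr16:46722553-46723562 lay in a stretch that carries VPS35, a subunit of the retromer sorting complex, and ORC6, a subunit of the origin recognition complex. Parental METTL7A MYC-tag had 7.62 and 13.6 there, resistant METTL7A 3.62 and 6.75 and resistant wild-type MYC-tag 4.70 and 3.24, so the parental METTL7A values were the highest. A further position, chr16:46864640-46865485, was found in 3 wild-type lists, with 5.15 and 16.3 in resistant IgG, 3.96 and 7.76 in parental MYC-tag and 3.13 and 4.15 in resistant MYC-tag. The highest resistant wild-type MYC-tag member, chr16:33965912-33966491 (7.93 and 15.9), overlapped a resistant wild-type IgG peak of 4.29 and 14.4, and their values overlap too. The highest parental wild-type IgG member lay on chromosome 2 (chr2:96781812-96782790, 7.84 and 7.90), in a stretch that carries the adrenergic receptor gene ADRA2B and the phosphatase gene DUSP2. Resistant wild-type IgG had 3.17 and 5.33 there, below both parental values. Closer to the centromere, chr2:91847045-91848313 was reproducible in parental METTL7A cells (10.6 and 11) and had 6.02 and 11.1 in resistant wild-type MYC-tag. Chromosomes 20 and 4 each had a position named because wild-type lists of both states, and no METTL7A list, held it. At chr20:30448661-30449559 parental IgG had 6.66 and 6.29 and resistant MYC-tag 3.82 and 7.74, and at chr4:49272565-49273473 the MYC-tag lists had 7.28 and 4.71 (parental) and 10.5 and 3.06 (resistant). The highest parental wild-type MYC-tag member was the chromosome 7 peak of 5.52 and 5.18 given above.

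By design the comparisons of interest were antibody, genotype and cell state at the same positions. Of the 231 positions, 140 were held by at least 1 METTL7A MYC-tag list and 115 by at least 1 wild-type list. Both METTL7A MYC-tag lists shared 32 positions, and 21 of these were in no other list. Wild-type lists of both states shared 7 positions, 5 of them in no METTL7A list. No position was in all 4 MYC-tag lists. An IgG peak lay at 64 positions (27.7%), and at 12 of the 140 METTL7A MYC-tag positions. The same counts are not given for positions outside the windows, so none of them is read as particular to the windows. The METTL7A MYC-tag lists also hold more members (78 and 101) than any wild-type list (12 to 49), which bears on how many positions each can share.

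Against the IgG list of the same cells, 1 of 12 parental wild-type MYC-tag members overlapped (8.33%; all peaks of that list, 15.2%) and 5 of 49 resistant ones (10.2%; 12.8%). Taken from the IgG side these were 1 of 27 (3.70%; 10.8%) and 5 of 40 (12.5%; 14.6%). None of the 78 and 101 METTL7A MYC-tag members overlapped a METTL7A IgG peak, where all peaks of those lists did so in 0.396% and 0.695%. From the IgG side, which has no members, 12.9% and 22.9% of peaks overlapped. Against wild-type MYC-tag, 3 of the 78 parental METTL7A members overlapped (3.85%; 6.61%) and 7 of the 101 resistant ones (6.93%; 8.21%), and of the wild-type members 3 of 12 (25%; 16.6%) and 6 of 49 (12.2%; 9.43%) overlapped METTL7A peaks. The exact 95% interval of each of these shares included that of the whole list.

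Between cell states the METTL7A MYC-tag members recurred in a larger share than the peaks of their lists as a whole. Of the parental members 35 of 78 (44.9%, 33.6 to 56.6) overlapped a resistant METTL7A MYC-tag peak, against 19.9% of all 2271 peaks. Of the resistant members 35 of 101 (34.7%, 25.5 to 44.8) overlapped a parental one, against 14.7% of all 3165. These intervals leave out the whole-list shares, but neighbouring peaks are not independent and no test over replicates is possible. The recurrence was not spread evenly. It was 8 of 12 parental members on chromosome 21, 15 of 28 on chromosome 7 and 6 of 13 on chromosome 17. In the other windows it was 6 of 25 (24%), against 18.97% of that list's peaks outside all windows. Of the resistant members, 6 of 9 on chromosome 21, 14 of 29 on chromosome 7 and 9 of 20 on chromosome 17 recurred. In the other windows 6 of 43 did (13.95%), against 14.03% of that list's peaks outside all windows. The larger share was thus not seen for resistant members of the other windows. Off chromosome 7, 40.0% of parental members recurred, against 15.4% of all peaks there. With a reciprocal overlap of at least 50% the shares fell to 28.2% and 21.8%. Wild-type members recurred in 3 of 12 (25%; whole list 18.7%) and 3 of 49 (6.12%; 6.65%) cases for MYC-tag, parental and resistant, and in 3 of 27 (11.1%; 15%) and 3 of 40 (7.50%; 8.46%) for IgG. The METTL7A IgG lists, again with no members, overlapped each other in 2.86% (parental) and 2.08% (resistant) of their peaks. The difference in recurrence between genotypes was not tested.

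**Figure D4:**
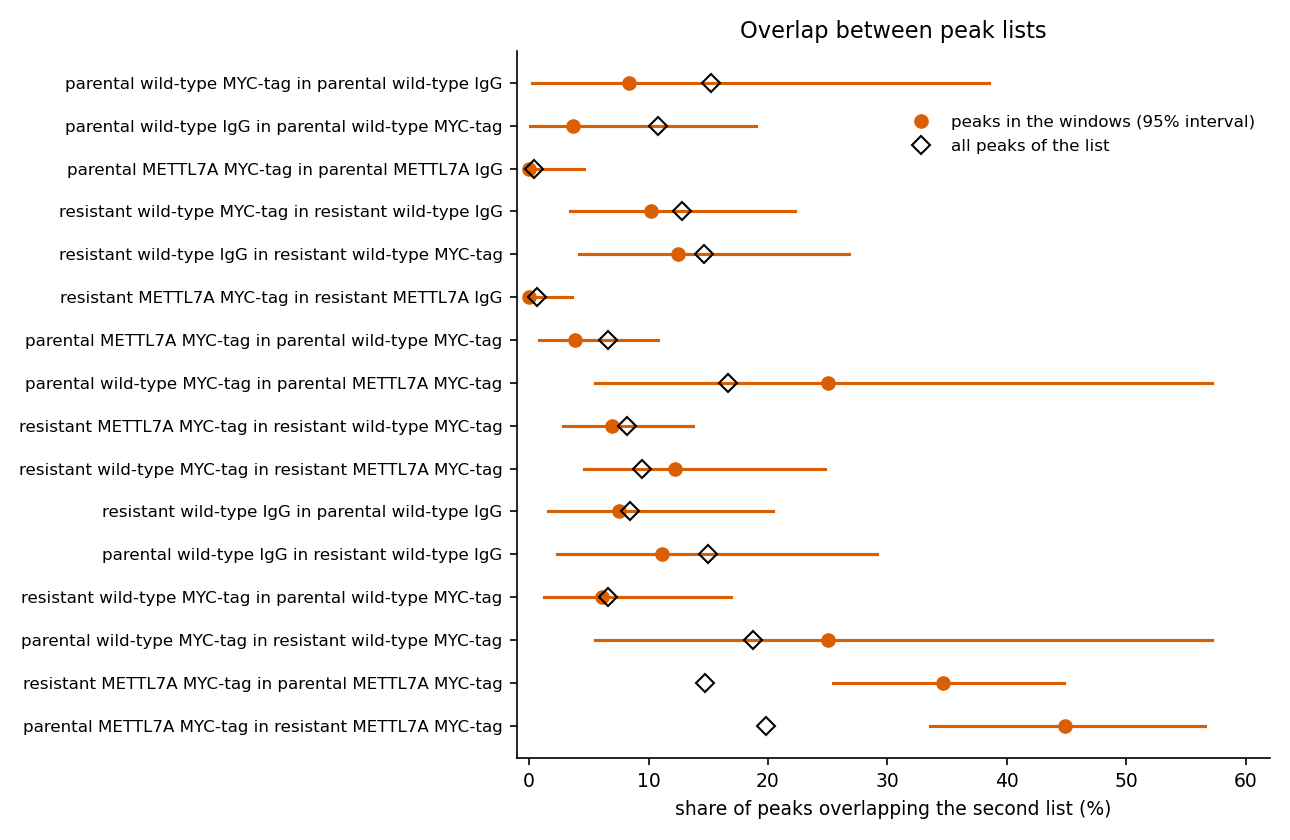
Share of peaks of the first list that overlap the second list by at least 1 bp (horizontal axis, %), for the 16 ordered pairs of lists in which the first list has members. Filled circles are peaks in the windows with exact 95% intervals, and open diamonds all peaks of the first list. For METTL7A MYC-tag across states, the lowest pairs drawn, the members are at 34.7% and 44.9% and the whole lists at 14.7% and 19.9%.

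Few members were reproducible. The numbers were 7 of 78 in parental METTL7A MYC-tag (8.97%, against 6.38% of the whole list), 7 of 101 in resistant METTL7A MYC-tag (6.93%; 3.29%) and 2 of 40 in resistant wild-type IgG (5%; 0.791%). It was 0 of 27 in parental wild-type IgG (2.15%), 0 of 12 in parental wild-type MYC-tag (2.59%) and 0 of 49 in the resistant MYC-tag list of the same genotype (2.28%). The METTL7A IgG lists, with 75.7% (parental) and 13.5% (resistant) of their peaks reproducible, held no member. Of the 16 reproducible members, 9 lay on chromosome 21 and 5 on chromosome 7, with 1 each on chromosomes 2 and 17. An IDR threshold adapts to each list, so these counts do not rest on a common height.

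Peak height in the windows was above the rest of the list in some lists and below it in others. Taking for each peak the lower of its 2 −log10 p values, members had a median of 5.47 in parental METTL7A MYC-tag against 4.76 for the other peaks, and 4.95 against 4.49 in the resistant list. Wild-type IgG members were also higher, at 4.37 against 3.70 and 5.13 against 4.48. Wild-type MYC-tag members were lower, at 3.83 against 4.41 and 3.88 against 4.15. Over the 6 lists with members the mean difference was 0.27, higher in 4 of 6 lists, and an exact two-sided sign-flip permutation test gave an adjusted p of 0.422. A height of 5 or more in both replicates was reached by 45 of 78 parental METTL7A members (57.7%; 37% of the list) and 47 of 101 resistant ones (46.5%; 39.4%). It was reached by 8 of 27 and 21 of 40 wild-type IgG members (29.6% and 52.5%; 17.5% and 39.1%), and by 1 of 12 and 6 of 49 wild-type MYC-tag members (8.33% and 12.2%; 24.1% and 19.8%). Of the METTL7A IgG peaks, none of them members, 2.86% and 18.8% reached it.

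**Figure D5:**
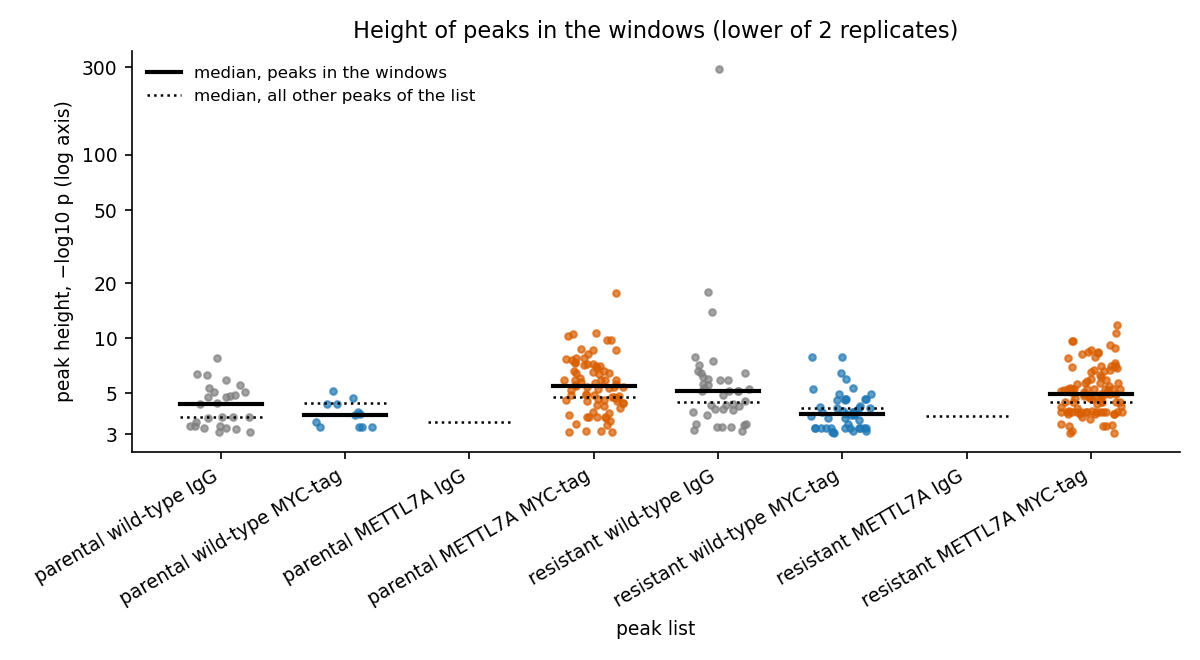
Height of each peak in the windows, as the lower −log10 p of the 2 replicates (vertical axis, log scale), in each of the 8 lists (horizontal axis). Solid lines are medians of these peaks and dotted lines medians of all other peaks of the list. Wild-type IgG and METTL7A MYC-tag medians lie above the dotted line, both wild-type MYC-tag medians below it, and 1 resistant wild-type IgG peak stands at 294.

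Members were wider than the other peaks in every MYC-tag list. The median widths were 729.5 against 632 bp (parental wild-type), 686 against 592.5 (resistant wild-type), 789 against 691 (parental METTL7A) and 744 against 684 (resistant METTL7A). In the wild-type IgG lists they were 576 against 595 and 612 against 610 bp. Over the 6 lists the mean difference was 55.3 bp (wider in 5 of 6), and the exact sign-flip permutation test gave an adjusted p of 0.281. The reproducible share differed by 0.60 percentage points (higher in 3 of 6 lists, adjusted p = 0.688 in the same exact test). The smallest unadjusted p that 6 lists allow is 0.0312. Compared by antibody, the width difference was 87.2 bp over 4 MYC-tag lists and −8.50 bp over 2 IgG lists. The exact permutation test of the lists gave p = 0.0667, the smallest that 4 against 2 lists allow, and an adjusted p of 0.600 over 9 tests. None of the other 8 tests, of height, width and reproducible share by antibody, genotype or cell state, had an adjusted p under 0.686 in this exact test, and none of the 9 could have passed 0.05. Antibody and genotype are not balanced in these tests. The 2 IgG lists with members are both wild-type, and the 2 METTL7A lists with members are both MYC-tag. A contrast by antibody thus cannot be told apart in full from one by genotype. The width difference by genotype was 35.5 bp over the 6 lists, but −16.5 bp within pairs of lists alike in antibody and state. Agreement of the 2 replicates was weak in members and other peaks alike. Spearman's rank correlation of their −log10 p across members, which share libraries and are not independent, was 0.20 over 78 and 0.33 over 101 METTL7A MYC-tag peaks, 0.37 over 27 and 0.13 over 40 wild-type IgG peaks, and −0.12 over 12 and −0.078 over 49 wild-type MYC-tag peaks, parental first. For the other peaks of the same 6 lists it was 0.22 and 0.15, 0.14 and 0.12, and 0.22 and 0.17, in that order.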

How the data were processed

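Peaks of 16 ChIP-seq samples in 8 groups of 2 were analysed from 8 deposited lists of 20 columns, 1 per group, as written by the method of irreproducible discovery rates (IDR). The submitters' processing notes name, with no role given, MACS2 2.2.7.1, Bowtie2 2.4.2 and the build GRCh37, besides bedtools 2.30, deepTools 3.5.1, SAMtools 1.16, FastQC and Trimmomatic. How duplicates, multiply placed reads and blacklisted regions were treated, and which control was used, bears on repeats and is not given in the sources used here. The heights and IDR values are −log10 p-values and −log10 rates deposited by the authors. Nothing says which replicate fills which columns. The lowest height in any list was 3.00, so weaker signal cannot be seen. Actual depth is unknown.

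Members, lists and tests were chosen with earlier results of these data known. Python 3.11.15, pandas 2.3.3, NumPy 2.4.6 and SciPy 1.17.1 were used. Height was the lower −log10 p of both replicates. Lists were compared by overlap of at least 1 bp. Medians of members minus those of other peaks of the list were tested over lists with at least 3 members by exact permutation, with Benjamini-Hochberg adjustment over 3 and 9 tests. The plan named 8 lists, and 6 had members. The test code was tested on simulated data. Positions named in the text are the 12 found in most lists, the highest member of each list, and the 5 highest in METTL7A MYC-tag lists of both states only and in wild-type lists of both states only. The 5 highest in all 4 MYC-tag lists and no IgG list were also planned, and there were none. Groups of peaks within 50 kb, and chr2:91847045-91848313, chr7:57484264-57484849, chr17:21219962-21220605 and chr17:21201451-21202174, were chosen after their values were seen.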

Additional observations from a re-analysis of the deposited data

Results flagged for a closer look

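Among the 4 wild-type lists, the highest member of resistant IgG, with a lower-replicate −log10 p of 294 (chr21:9825490-9827150), stood far from the highest members of the other 3 lists, which lay at 5.18 to 7.93. Both replicates of the list show it, at 607 and 294. How often chance would flag the highest member of a list in this way was not tested.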

How the results depend on the processing

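No paired analysis was possible because each list combines both replicates of its group and carries no replicate numbers. The swaps within pairs of lists given below pair groups, not replicates. No test had an adjusted p under 0.05 in any setting run, which says nothing of stability, since neither the 9 contrasts nor the other 3 tests with 1 list left out could have reached it. Among reproducible peaks (IDR up to 0.05), which are few, the share in the windows was 0% in parental wild-type IgG (0 of 31). It was also 0% in wild-type MYC-tag, parental (0 of 26) and resistant (0 of 63). In resistant wild-type IgG it was 10.0% (2 of 20), and in METTL7A MYC-tag 4.83% (parental, 7 of 145) and 6.73% (resistant, 7 of 104). At a height of 5 or more the shares were 3.17% and 2.12% in parental and resistant wild-type IgG, and 0.413% and 1.10% in parental and resistant wild-type MYC-tag. In METTL7A MYC-tag they were 5.36% (parental) and 3.77% (resistant), the latter not far above parental wild-type IgG. Without the chromosome 7 window, a setting chosen after seeing the data, the METTL7A MYC-tag shares were 2.2% and 2.27%. At that height the overlap was 0% between parental wild-type IgG and MYC-tag, between wild-type MYC-tag of both states and between resistant wild-type and METTL7A MYC-tag, and 100% for the single parental wild-type MYC-tag member in METTL7A MYC-tag. Without chromosome 7 the first of these was also 0%. With 50% reciprocal overlap the recurrence of METTL7A MYC-tag members was 28.2% (parental) and 21.8% (resistant).

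Several directions changed, none of them with an adjusted p under 0.05. At a height of 5 or more, the reproducible share of members minus other peaks was −2.34 points and its antibody contrast 0.305, the height contrasts were 0.457 by antibody and −0.0859 by state, and the width contrast by state was 28 bp. At an IDR of 0.01 the reproducible difference was −0.502 points. Without chromosome 7 the width contrast by state was 23.0 bp and the reproducible contrast by antibody 0.622. Within pairs of lists the width contrast by genotype was −16.5 bp. Leaving out 1 list at a time gave −0.135 to 1.24 points for the reproducible difference, −3.90 to 2.57 for its antibody contrast, −0.404 to 0.290 for height by state and −45.9 to 17.9 bp for width by state. The cause of these changes was not tested. With 12 to 101 members in the 6 lists and none in the others, short lists limit what can be seen.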
